A study of Mus musculus with 21 samples.

Results

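Fndc5, the gene of the membrane protein from which the hormone irisin is cut, was followed together with 5 integrin subunit genes (Itgav, Itgb5, Itgb1, Itgb3 and Itgb8) and 3 genes of focal adhesion signaling (Ptk2, Src and Bcar1) in mouse midbrain after injection of the neurotoxin MPTP, of irisin, or of both. The 9 genes were taken by symbol from the 55592 genes that the 2 deposited tables list together (33829 and 55385, with 33622 in both), and each was found once in each table. The 21 libraries, each called a mouse here, came from male C57BL/6 mice aged 6 weeks, 3 per group, injected intraperitoneally. In the pre-treatment experiment, the control group received ddH2O for 10 days, the MPTP group ddH2O for 5 days and MPTP at 30 mg/kg/day for 5 days, and the irisin-MPTP group irisin at 200 µg/kg/day for 5 days and then MPTP at the same dose. In the delayed experiment, at the same doses, the control group received ddH2O for 10 days, the irisin group ddH2O for 5 days and then irisin for 5 days, the MPTP group MPTP for 5 days and then ddH2O for 5 days, and the MPTP-irisin group MPTP for 5 days and then irisin for 5 days. MPTP is converted in the brain to a toxin that enters dopaminergic neurons through the transporter encoded by Slc6a3. MPTP was thus the last agent given to pre-treatment mice and the first given to delayed mice. One question of the study was whether irisin acts through αV integrins, which it addressed with a blocking peptide in cultured cells. The comparisons below ask whether the RNA of these genes differed between the groups.

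Counted reads per library ran from 66653781 to 75637604 for pre-treatment mice and from 48843585 to 77203445 for delayed mice. The labels name midbrain, and the methods of the study name nigral tissue. The dopaminergic markers Th, Slc6a3 and Slc18a2 were present in all libraries, with Th between 21.3 and 63.3 CPM (reads scaled to library size by the trimmed mean of M values, TMM). Slc6a3 had log2 fold changes against control of −0.68 (pre-treatment MPTP) and −1.08 (delayed MPTP), edgeR adjusted p = 0.818 and 0.458. It is 1 of 10 dopaminergic markers listed. For pre-treatment MPTP against control, 6 of the 10 were above 0 and 4 below, with a median of 0.16 and 0 without overlap. Of all genes, 49.6% were above 0 and 11.6% did not overlap there. For delayed MPTP against control, 10 of 10 were below 0, with a median of −0.41 and 6 without overlap. Of all genes, 49.7% were above 0 and 16.2% did not overlap in this comparison. The summed level of 5 choroid plexus markers (Ttr, Folr1, Kl, Kcne2 and Aqp1) ranged from 7.11 to 1638 CPM between libraries, with 5 mice at 1314 CPM or more in 4 of the 7 groups (1 pre-treatment MPTP mouse, 2 delayed controls, 1 delayed MPTP mouse and 1 MPTP-irisin mouse). Here and below, CPM of summed markers is scaled to the total count alone, without the TMM factor. In such bulk tissue, fewer cells of a type and less RNA per cell cannot be told apart.

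FNDC5 is a type I membrane protein with a fibronectin type III domain, and irisin is its released ectodomain. Integrins are pairs of an α and a β chain that link the extracellular matrix to the cytoskeleton. The αV chain pairs with β1, β3, β5, β6 or β8, and αVβ5 has been described as a receptor for irisin in bone and fat cells. Ligand binding recruits focal adhesion kinase (FAK, encoded by Ptk2), which binds the kinase Src, and both phosphorylate the scaffold p130Cas (encoded by Bcar1). These steps are changes of binding and phosphorylation, which RNA levels do not measure.

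The 250 bases before the annotated RefSeq start of the precursor gene and of the receptor pair are shown because these 3 genes are those on which the study's question about αV integrins rests. They are printed 5′ to 3′ on the gene's strand from the mouse build GRCm38.p6. Capitals mark the matches to a GC box (GGGCGG), a cyclic AMP response element (TGACGTCA), an AP-1 site (TGANTCA), an estrogen-related receptor half-site (AAGGTCA) and a TATA box (TATAAA), searched on both strands. Of 32851 promoter windows of this length, 32.7% held the GC box, 1.55% the cyclic AMP response element, 6.75% the AP-1 site, 4.08% the half-site and 12.4% the TATA box.
Fndc5, chr4:129136749-129136998, plus strand: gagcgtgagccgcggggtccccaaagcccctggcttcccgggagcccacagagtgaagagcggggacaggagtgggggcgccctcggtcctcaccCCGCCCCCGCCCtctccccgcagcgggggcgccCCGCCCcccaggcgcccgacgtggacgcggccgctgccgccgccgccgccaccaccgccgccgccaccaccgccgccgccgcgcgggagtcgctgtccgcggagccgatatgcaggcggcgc
Itgav, chr2:83724147-83724396, plus strand: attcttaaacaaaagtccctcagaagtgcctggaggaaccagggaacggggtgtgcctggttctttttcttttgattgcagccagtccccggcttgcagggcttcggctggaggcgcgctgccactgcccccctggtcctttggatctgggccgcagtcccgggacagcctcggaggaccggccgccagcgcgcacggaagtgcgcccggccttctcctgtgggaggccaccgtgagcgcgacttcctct
Itgb5, chr16:33829415-33829664, plus strand: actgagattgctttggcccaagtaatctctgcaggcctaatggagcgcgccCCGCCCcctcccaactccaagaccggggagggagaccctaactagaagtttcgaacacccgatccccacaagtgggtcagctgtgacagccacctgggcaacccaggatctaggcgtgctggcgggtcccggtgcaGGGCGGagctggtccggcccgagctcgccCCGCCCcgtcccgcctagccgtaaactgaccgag
The Fndc5 and Itgb5 windows each held 3 GC box matches, and none of the other 4 motifs. The Itgav window held none of the 5 motifs.

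Levels were compared between genes as FPKM (fragment counts scaled to library depth and gene length). Fndc5 had the highest mean FPKM of the 9 genes in all 7 groups, and Itgb1 the second. Fndc5 ranged from 40.9 to 48.9 FPKM (median 46.7) in pre-treatment mice and in delayed mice from 50.1 to 58.9 FPKM (median 54.9). Itgb1, the β chain shared by many integrins, lay between 16.7 and 24.3 FPKM. No mouse value of Fndc5 met one of Itgb1 in any group.
Src (5.29 to 15.1 FPKM), Itgb5 (7.75 to 15.5 FPKM), Bcar1 (8.09 to 15.4 FPKM) and Itgb8 (6.12 to 10.4 FPKM) took the third to sixth places in an order that differed between groups. Itgb5 and Bcar1 were neighbours in 5 groups, and their mouse values overlapped in all 5. Ptk2 (3.78 to 5.24 FPKM) and Itgav (1.14 to 5.89 FPKM) shared the seventh and eighth places, with overlapping values in 5 of the 7 groups. Itgb3, the β chain best known from platelets and endothelium, was last in all groups at 0.299 to 0.819 FPKM, from 139 to 331 reads a library. All 63 places of this order (9 genes in 7 groups) were the same when CPM was divided by the gene length that the files imply. The tables of the experiments were made separately, so that levels were not tested between them.

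**Figure D1:**
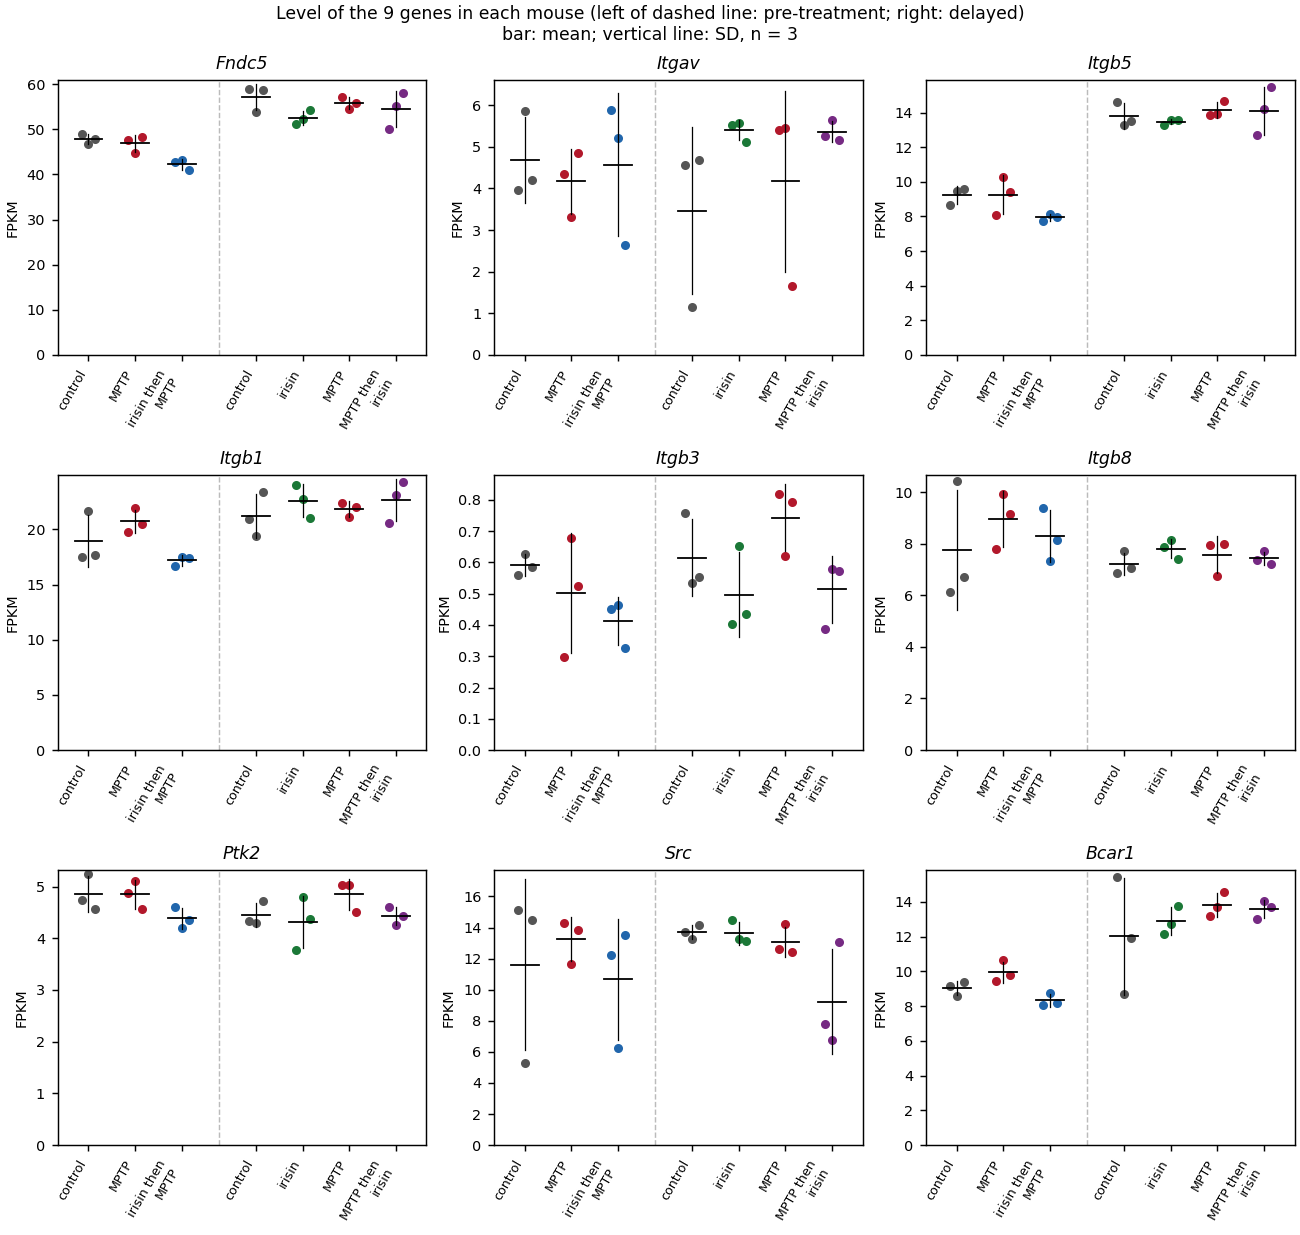
FPKM of each of the 9 genes (vertical axis, starting at 0) in each of the 21 mice by group, with a dot for each mouse, a bar for the mean and a line for the SD (n = 3). Fndc5 sits between 40.9 and 58.9 FPKM in every mouse, while for Src and Itgav a few mice lie far below the others of their experiment.

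Fndc5 (ENSMUSG00000001334, chromosome 4, 129136999 to 129144593, plus strand, GRCm38) differed little between mice. In the pre-treatment experiment it stood at 48.9, 46.7 and 47.8 FPKM in the controls, at 47.7, 44.7 and 48.3 FPKM in the MPTP mice, and at 42.7, 43.3 and 40.9 FPKM in the irisin-MPTP mice. The 3 irisin-MPTP mice were thus the lowest of the 9, below every MPTP mouse and every control. The log2 fold change was −0.14 (95% confidence interval −0.28 to −0.01) against MPTP and −0.18 (−0.31 to −0.05) against control, with unadjusted p of 0.0354 and 0.0139 and adjusted p of 0.754 and 0.564 by edgeR's quasi-likelihood test over all genes.
Among the delayed mice Fndc5 stood at 58.9, 53.8 and 58.7 FPKM in the controls, 51.2, 52.3 and 54.3 FPKM with irisin alone, 57.2, 54.6 and 55.9 FPKM with MPTP, and 50.1, 55.1 and 58.1 FPKM with MPTP-irisin. The groups overlapped in each of these comparisons. Irisin alone differed from control by −0.13 (−0.27 to 0.01, adjusted p = 0.567) and MPTP-irisin from MPTP by −0.03 (−0.17 to 0.11, adjusted p = 0.9995). MPTP itself left Fndc5 within −0.17 to 0.10 of control on the log2 scale (pre-treatment) and within −0.20 to 0.09 (delayed), as 95% intervals.

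Itgav (ENSMUSG00000027087, chromosome 2, 83724397 to 83806916, plus strand), the αV chain, overlaps 2 other annotated genes, Gm13684 and Dnmt3l-ps1. It varied more between mice of a group than between groups. In the delayed controls it was 4.57, 1.14 and 4.68 FPKM, with irisin alone 5.53, 5.57 and 5.12 FPKM, with MPTP 5.41, 5.45 and 1.65 FPKM, and with MPTP-irisin 5.26, 5.64 and 5.17 FPKM. Replicate 2 of the controls and replicate 3 of the MPTP mice lay apart from the other 10 mice, by a gap of 1.49 on the log2 CPM scale. A gap as wide between neighbouring mice was found for 2.01% of the 10685 genes with a mean of at least 10 CPM in that experiment. All 3 mice given irisin alone were above all 3 controls (log2 fold change 0.63, −0.45 to 1.70, adjusted p = 0.740). Without replicate 2 of the controls, the low mouse, the fold change was 0.21. Astrocyte, dopaminergic and neuronal markers summed lower and precursor markers higher without overlap in these irisin mice (2677 to 2745 against 2767 to 2851 CPM, 665 to 667 against 704 to 740 CPM, 4015 to 4056 against 4103 to 4244 CPM, and 83.5 to 88.5 against 78.4 to 82.6 CPM). Their part in the Itgav values was not tested. Among the pre-treatment mice Itgav was 3.95, 5.87 and 4.21 FPKM in the controls, 4.36, 3.32 and 4.85 FPKM with MPTP, and 5.89, 5.20 and 2.64 FPKM in the irisin-MPTP mice, and the groups overlapped.

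Itgb5 (ENSMUSG00000022817, chromosome 16, 33829665 to 33949338, plus strand), the β5 chain, was 8.66, 9.46 and 9.62 FPKM in the pre-treatment controls, 8.07, 10.3 and 9.42 FPKM with MPTP, and 7.75, 8.12 and 7.96 FPKM in the irisin-MPTP mice. The irisin-MPTP mice were below all controls, with a log2 fold change of −0.22 (−0.44 to −0.0049, adjusted p = 0.692), and overlapped the MPTP mice (−0.22, −0.43 to 0.0015, adjusted p = 0.805). In the delayed experiment the 12 mice lay between 12.7 and 15.5 FPKM, and the MPTP-irisin mice differed from MPTP by 0.0028 (−0.17 to 0.17).
Itgb1 (ENSMUSG00000025809, chromosome 8, 128685654 to 128733200, plus strand) was 19.8, 21.9 and 20.5 FPKM in the pre-treatment MPTP mice and 16.7, 17.5 and 17.4 FPKM in the irisin-MPTP mice, which did not overlap (log2 fold change −0.27, −0.49 to −0.04, adjusted p = 0.725). The controls, at 17.5, 21.7 and 17.7 FPKM, spanned both. The delayed mice had Itgb1 at 22.4, 21.1 and 22.1 FPKM with MPTP and 20.6, 23.1 and 24.3 FPKM with MPTP-irisin (0.06, −0.13 to 0.25).
Itgb3 (ENSMUSG00000020689, chromosome 11, 104608000 to 104670476, plus strand) was 0.819, 0.620 and 0.793 FPKM in the delayed MPTP mice and 0.388, 0.578 and 0.574 FPKM in the MPTP-irisin mice, with no overlap (log2 fold change −0.52, −1.05 to 0.0021, adjusted p = 0.9995). Of the pre-treatment mice, the irisin-MPTP mice (0.450, 0.465 and 0.325 FPKM) were below the controls (0.560, 0.628 and 0.587 FPKM), while the MPTP mice ranged from 0.299 to 0.680 FPKM.
Itgb8 (ENSMUSG00000025321, chromosome 12, 119158022 to 119238802, minus strand), whose αVβ8 pair releases active TGF-β, overlapped between the groups in all 6 comparisons of 2 groups, and its log2 fold changes there lay between −0.11 and 0.20.

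Src (ENSMUSG00000027646, chromosome 2, 157418444 to 157471838, plus strand) stood at 2 levels. Among pre-treatment mice it was 5.29 FPKM in replicate 2 of the controls and 6.24 FPKM in replicate 2 of the irisin-MPTP mice, against 11.6 to 15.1 FPKM in the other 7 mice. Among delayed mice it was 7.82 and 6.80 FPKM in replicates 1 and 2 of the MPTP-irisin mice, 13.1 FPKM in replicate 3, and 12.4 to 14.5 FPKM in the 9 mice of the other groups. The low mice therefore sat in groups with and without irisin in one experiment and in a single group in the other. The gap between low and high mice was 0.88 and 0.67 on the log2 CPM scale, and 5.54% and 6.69% of genes with a mean of at least 10 CPM had a gap as wide.
MPTP-irisin differed from MPTP in Src by a log2 fold change of −0.49 (−0.91 to −0.08), with an unadjusted p of 0.0247 and an adjusted p of 0.9995. Without replicate 3 of the MPTP-irisin group, the mouse at the high level, the fold change was −0.83 and the adjusted p 0.0147, and without replicate 2 the fold change was −0.32. The interaction of irisin with MPTP on Src was −0.47 (−1.06 to 0.12, adjusted p = 0.918). It was −0.81 (adjusted p = 0.0745) without replicate 3 of MPTP-irisin and −0.29 without replicate 2.

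Ptk2 (ENSMUSG00000022607, chromosome 15, 73205102 to 73423280, minus strand), which encodes FAK, overlaps 4 annotated genes (1700085D07Rik, Gm24787, Gm7908 and Mir151). It was 4.60, 4.20 and 4.35 FPKM in the irisin-MPTP mice, 4.88, 5.11 and 4.56 FPKM in the MPTP mice and 4.74, 5.24 and 4.57 FPKM in the controls of the pre-treatment experiment. The groups overlapped in all 6 comparisons, and no log2 fold change of Ptk2 was larger than 0.15 in size.
Bcar1 (ENSMUSG00000031955, chromosome 8, 111710474 to 111743809, minus strand) was 9.15, 8.61 and 9.38 FPKM in the pre-treatment controls, 9.43, 10.6 and 9.79 FPKM with MPTP, and 8.09, 8.76 and 8.17 FPKM in the irisin-MPTP mice. In CPM, the scale of the test, the 3 groups were in the order MPTP, control and irisin-MPTP with no overlap between any of them. Irisin-MPTP differed from MPTP by −0.25 (−0.41 to −0.09), with an unadjusted p of 0.00564 and an adjusted p of 0.537, the smallest adjusted p of any of the 9 genes. MPTP differed from control by 0.13 (−0.03 to 0.29, adjusted p = 0.843). The delayed controls alone spanned 8.69 to 15.4 FPKM and the other 9 mice 12.2 to 14.6 FPKM.

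In none of the 9 comparisons, 81 tests in all, did a member pass an adjusted p of 0.05 by edgeR, and none did so by DESeq2 or by limma on log2 FPKM values. At an unadjusted p under 0.05, edgeR passed 7 of the 81. In the pre-treatment experiment these were 0 of 9 for MPTP against control (6.03% of all tested genes passed at this level, 0.0221% after adjustment), 3 of 9 for irisin-MPTP against MPTP (6.22% and 0.0707%) and 2 of 9 for irisin-MPTP against control (7.12% and 0.0707%). In the delayed experiment they were 0 of 9 for MPTP against control (8.33% and 0.132%), 0 of 9 for irisin alone against control (8.97% and 0.109%), 1 of 9 for MPTP-irisin against MPTP (3.9% and 0.00456%) and 0 of 9 for the interaction (5.57% and 0.0411%).
For irisin-MPTP against MPTP, Bcar1, Itgb1 and Fndc5 (3 of 9) did not overlap, beside 14.2% of all genes. Of the 9 fold changes 8 were below 0, with a median of −0.22 beside 0.0031 over all genes, of which 50.7% were above 0. Only Itgav was above 0 (0.14, −0.54 to 0.82), and it stood at −0.09 without replicate 1 and at 0.42 without replicate 3 of the irisin-MPTP mice. Summed markers of several cell types also differed without overlap between these groups. The 5 endothelial markers (Cldn5, Pecam1, Cdh5, Flt1 and Tek) summed to 127 to 134 CPM in the irisin-MPTP mice and 142 to 155 CPM in the MPTP mice, and the 3 blood markers (Hba-a1, Hbb-bs and Alas2) to 140 to 277 CPM and 330 to 505 CPM. The 6 astrocyte markers (Gfap, Aqp4, Aldh1l1, Slc1a2, Slc1a3 and Gja1) summed to 2404 to 2511 CPM and 2561 to 2809 CPM. The 2 oligodendrocyte precursor markers (Pdgfra and Cspg4), at 79.2 to 80.0 CPM and 73.1 to 76.3 CPM, and the 4 neuronal markers (Rbfox3, Snap25, Syt1 and Tubb3), at 4159 to 4193 CPM and 3992 to 4157 CPM, were higher in the irisin-MPTP mice. No gene of these lists was at 0. Dopaminergic and choroid plexus sums overlapped, but the fold changes of their genes were below 0. The median was −0.43 for dopaminergic markers, with 10 of 10 below 0 and 2 without overlap. It was −2.49 for choroid plexus markers, with 5 of 5 below 0 and 0 without overlap, and replicate 2 of the MPTP mice summed to 1638 CPM. The part of these markers in the result was not tested. The median in the delayed experiment, for MPTP-irisin against MPTP, was −0.02, with 6 of 9 below 0 and 1 (Itgb3) without overlap, beside 10.7% of all genes. All 10 summed marker lists overlapped there (endothelial, 187 to 213 CPM and 187 to 208 CPM).
For the remaining comparisons, the groups did not overlap for 4 of 9 members in irisin-MPTP against control (Fndc5, Itgb5, Itgb3 and Bcar1, beside 13.6% of all genes), 1 of 9 in MPTP against control of the pre-treatment experiment (Bcar1, beside 11.6%), 0 of 9 in MPTP against control of the delayed experiment (beside 16.2%) and 1 of 9 in irisin alone against control (Itgav, beside 15.1%). Irisin-MPTP mice also differed from controls without overlap in markers summed and scaled to the total count. These were lower for endothelial (127 to 134 against 139 to 158 CPM), blood (140 to 277 against 321 to 491 CPM), mural (177 to 186 against 188 to 215 CPM) and microglial cells (195 to 212.5 against 212.6 to 243 CPM). They were higher for precursors (79.2 to 80.0 against 62.1 to 73.2 CPM) and neurons (4159 to 4193 against 4031 to 4143 CPM). The mural, microglial and neuronal separations do not hold once the sums are divided by the TMM factors, which ran from 0.972 to 1.014. Their part in the result was not tested. Of the 9 fold changes, 4 were above 0 for pre-treatment MPTP against control (49.6% of all genes), 1 for irisin-MPTP against control (50.8%), 7 for delayed MPTP against control (49.7%), 4 for irisin alone against control (49.5%), 3 for MPTP-irisin against MPTP (49.9%) and 2 for the interaction (50.5%). Within an experiment these comparisons share groups, so that their fold changes are not independent of each other.

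**Figure D2:**
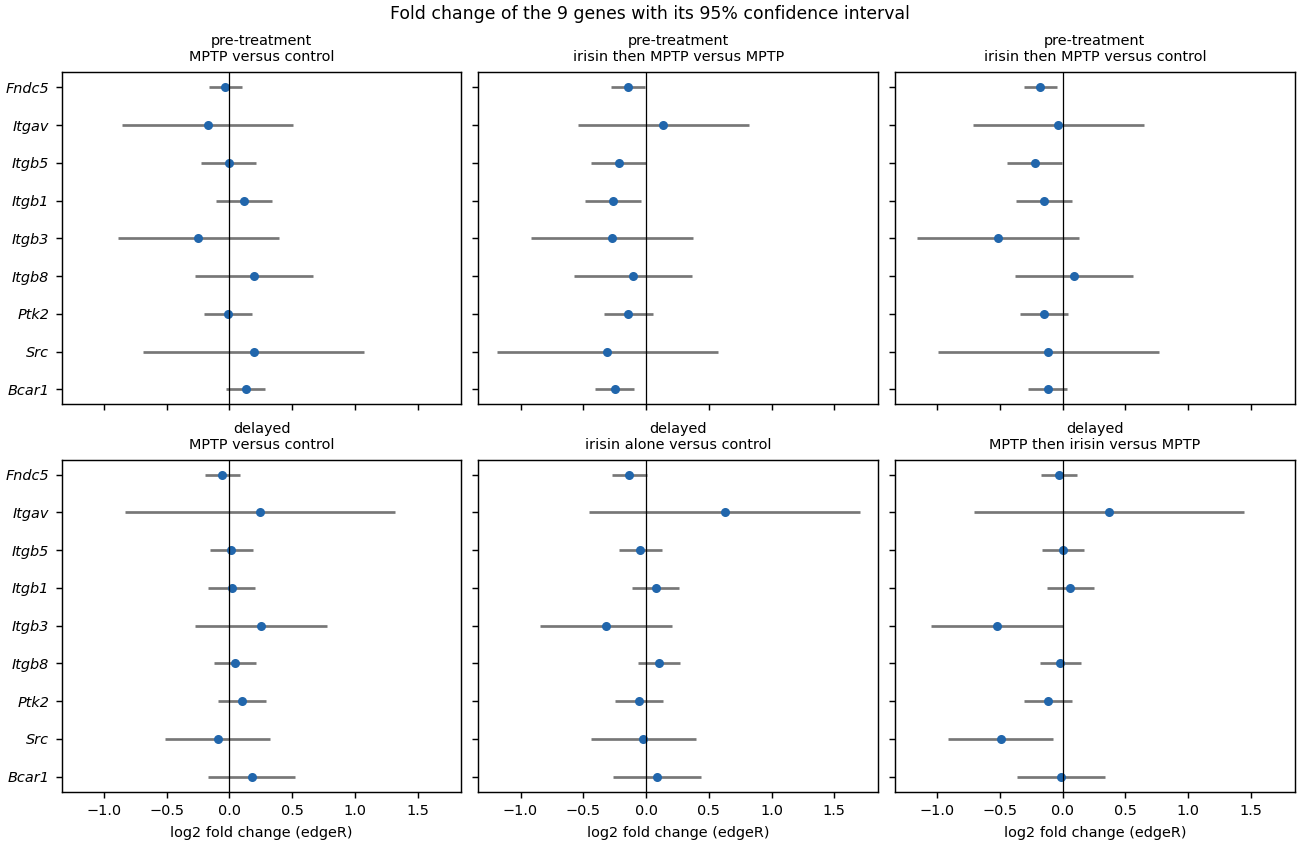
Log2 fold change (horizontal axis) of the 9 genes in the 6 comparisons of 2 groups, with points for edgeR estimates and lines for 95% confidence intervals (n = 3 mice a group). For irisin-MPTP against MPTP, 8 of the 9 points lie left of 0, and only the intervals of Fndc5, Itgb1 and Bcar1 do not reach 0. The intervals of Itgav, Src and Itgb3 are the 3 widest in each comparison.

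Whether a treatment acted differently in the 2 experiments was tested in a fit of all 21 mice, as a difference of differences. The MPTP effect (delayed minus pre-treatment) differed for 0 of 9 members, also at an unadjusted p under 0.05 (5.68% of all genes passed unadjusted, 0.103% adjusted). The irisin effect in MPTP mice differed for 0 of 9 members after adjustment (0.077% of all genes). Unadjusted, 1 of 9 passed (5.69% of all genes). This was Itgb1, at 0.32 (0.05 to 0.59), with an unadjusted p of 0.0243 and an adjusted p of 0.803. Of the 9 differences, 5 were above 0 for the MPTP effect (50.7% of all genes) and 7 for the irisin effect (48.7%). The order of the injections, the experiment and the table cannot be told apart in these contrasts.

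The other genes of the pathway were read from 4 lists. Of 22 other integrin subunits, 20 were tested in each experiment, and none passed adjustment in any comparison. At most 2 of 20 passed unadjusted in one comparison of 2 groups (for irisin alone, and for irisin-MPTP against MPTP and against control, where 8.97%, 6.22% and 7.12% of all genes passed). Their median log2 fold change ranged from −0.19 (irisin alone against control) to 0.06 (pre-treatment MPTP against control) over these comparisons, beside −0.0023 to 0.0037 over all genes. The subunit with the smallest p was Itgam for pre-treatment MPTP against control, the αM chain of microglia and myeloid cells. It was 17.3, 21.4 and 9.69 CPM in the controls and 9.18, 6.99 and 8.48 CPM with MPTP (log2 fold change −0.97, SE 0.27, adjusted p = 0.786). Itgam was also first for MPTP-irisin against MPTP (−0.88, SE 0.31, adjusted p = 0.9995) and for the interaction (−1.31, SE 0.44, adjusted p = 0.893). Itgad was first for irisin-MPTP against control, at 0 to 0.358 CPM in the controls and 1.71 to 2.30 CPM in the irisin-MPTP mice (3.29, SE 0.81, adjusted p = 0.376). Itga6, the laminin-binding α6 chain, was first for irisin-MPTP against MPTP (−0.37, SE 0.13, adjusted p = 0.672) and for delayed MPTP against control (0.27, SE 0.13, adjusted p = 0.628). Itga7, another laminin-binding chain, was first for irisin alone (−0.33, SE 0.09, adjusted p = 0.411).

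Of 40 focal adhesion adaptors and kinases, 40 were tested in the pre-treatment and 39 in the delayed experiment, and none passed adjustment in any comparison. The paper reports the focal adhesion pathway as enriched in its RNA-seq, which is a measure of a gene set and not of single genes. Up to 5 of 39 (4 higher and 1 lower, for delayed MPTP against control) passed unadjusted, beside 8.33% of all genes. The list's median ranged from −0.08 (irisin-MPTP against MPTP, 27 of 40 below 0) to 0.07 (delayed MPTP against control, 26 of 39 above 0). Fermt2, which encodes kindlin-2, an activator of integrins, was first in both comparisons of irisin-MPTP. It was 134, 141 and 119 CPM in the controls, 117, 119 and 128 CPM with MPTP, and 107, 108 and 109 CPM in the irisin-MPTP mice. The irisin-MPTP mice were below all others (log2 fold change −0.29 against control, SE 0.07, adjusted p = 0.376; −0.17 against MPTP, SE 0.07, adjusted p = 0.765). Tns3, a tensin that binds the β chain's tail, was first for pre-treatment MPTP (0.32, SE 0.09, adjusted p = 0.786). Dock1, the exchange factor that p130Cas recruits through Crk, was first for delayed MPTP (0.26, SE 0.08, adjusted p = 0.413). Efs, of the p130Cas family, was first for irisin alone (−0.40, SE 0.14, adjusted p = 0.501), the actin crosslinker Actn1 for MPTP-irisin against MPTP (0.19, SE 0.09, adjusted p = 0.9995) and the Src family kinase Fyn for the interaction (0.22, SE 0.08, adjusted p = 0.893).

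Of the 12 genes of Fndc5 regulators, relatives and reported targets, 11 were tested and Ucp1 was not. None passed adjustment in any comparison, and at most 2 of 11 passed unadjusted in one comparison of 2 groups (delayed MPTP against control, beside 8.33% of all genes). The list's median ranged from −0.08 to 0.09 over these comparisons. Hsp90aa1, a cytosolic chaperone whose extracellular form has been linked to irisin binding by αVβ5, was first in the list for delayed MPTP against control. It was 1037, 1111 and 1240 CPM in the controls and 699.8, 699.6 and 985 CPM with MPTP (log2 fold change −0.51, SE 0.12, adjusted p = 0.284). It was 938 to 1008 CPM with MPTP-irisin (0.29 against MPTP, SE 0.12, adjusted p = 0.9995). Ppargc1b, a coactivator related to the regulator of Fndc5 in muscle, was first for irisin alone (0.45, SE 0.19, adjusted p = 0.539). The relative Fndc3a was first for pre-treatment MPTP (0.21, SE 0.07, adjusted p = 0.818) and for irisin-MPTP against control (0.15, SE 0.07, adjusted p = 0.721). Fndc10 was first for irisin-MPTP against MPTP (0.29, SE 0.08, adjusted p = 0.543) and Fndc4 for the interaction (0.18, SE 0.08, adjusted p = 0.902).

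**Figure D3:**
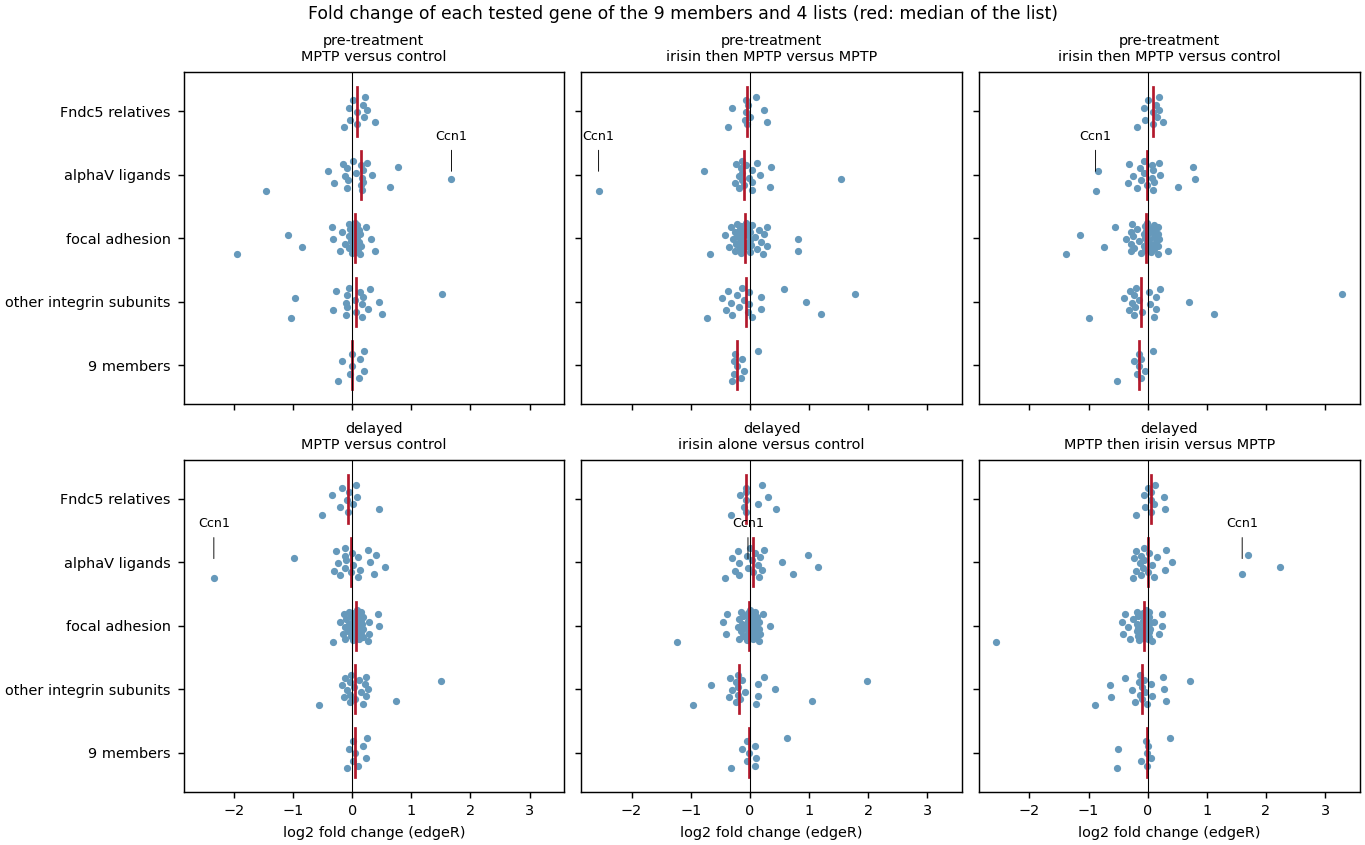
Log2 fold change (horizontal axis) of each tested gene of the 9 members and the 4 lists in the 6 comparisons of 2 groups, with a point for each gene and a red line for the list's median. List medians stay between −0.22 and 0.14, and Ccn1 among the αV ligands lies at 1.68 and −2.56 for pre-treatment and at −2.34 and 1.60 for delayed mice.

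Among the 21 genes of αV integrin ligands and their release, all tested, Ccn1 alone passed adjustment, and it did so for both differences between the experiments, in which 0.103% and 0.077% of all genes passed. Ccn1 (ENSMUSG00000028195, chromosome 3, 145646976 to 145649981, minus strand) encodes a secreted matrix protein, formerly CYR61, that binds αVβ3, αVβ5 and other integrins and is induced early after many stimuli. Pre-treatment mice had 2.63, 5.99 and 6.74 CPM in the controls, 19.5, 19.3 and 10.4 CPM with MPTP, and 3.02, 2.90 and 2.42 CPM in the irisin-MPTP mice. The delayed mice had 13.0, 7.49 and 34.7 CPM in the controls, 13.2, 20.1 and 20.7 CPM with irisin alone, 3.67, 3.99 and 3.23 CPM with MPTP, and 9.99, 10.3 and 12.7 CPM with MPTP-irisin. The MPTP mice were thus above all controls in one experiment and below all controls in the other. The irisin-MPTP mice were below all MPTP mice, and the MPTP-irisin mice above all MPTP mice.
The log2 fold change for MPTP against control was 1.68 (0.86 to 2.50, adjusted p = 0.576) for pre-treatment and −2.34 (−3.33 to −1.35, adjusted p = 0.127) for delayed mice. For irisin-MPTP against MPTP it was −2.56 (−3.41 to −1.71, adjusted p = 0.0695) and for MPTP-irisin against MPTP 1.60 (0.62 to 2.57, adjusted p = 0.9995). The difference of the MPTP effects (delayed minus pre-treatment) was −4.00 (−5.31 to −2.70), with an adjusted p of 0.0103, and that of the irisin effects 4.15 (2.83 to 5.47), with an adjusted p of 0.0104, both by edgeR over all genes. Without replicate 3 of the delayed MPTP mice the first of these stood at −3.93 with an adjusted p of 0.0524. By limma on log2(FPKM + 1) it stood at −2.91 with an adjusted p of 0.0521. Irisin alone differed from control by −0.03 (−0.97 to 0.90). Replicate 3 of the delayed controls, at 34.7 CPM, weighed on these values. Without it, irisin alone differed from control by 0.81 (adjusted p = 0.359), delayed MPTP from control by −1.49 (adjusted p = 0.0954) and the interaction was 0.79, against 1.63 with all mice. Within an experiment, delayed MPTP against control passed without replicate 2 of the controls (−2.72, adjusted p = 0.0166), and irisin-MPTP against MPTP without replicate 1 of the controls (−2.56, adjusted p = 0.0247).
Summed choroid plexus markers were 7.70 to 1638 CPM in the pre-treatment MPTP mice and 36.0 to 1523 CPM in the delayed MPTP mice. Their median difference between the experiments was −3.85 for the MPTP effect, with 5 of 5 below 0. At an unadjusted p under 0.05 by edgeR, 4 of 5 passed (5.68% of all genes), with a smallest adjusted p of 0.721. For the irisin effect the median was 2.74, with 5 of 5 above 0, 2 of 5 passing (5.69%) and a smallest adjusted p of 0.771. The 3 blood markers had a median log2 fold change of −0.90 for irisin-MPTP against MPTP (3 of 3 below 0) and 0.48 for MPTP-irisin against MPTP (3 of 3 above 0). The median difference of these blood markers between the experiments was 1.41, with a smallest adjusted p of 0.537 by edgeR. At an unadjusted p under 0.05, 3 of 3 passed, beside 5.69% of all genes. For delayed MPTP against control their median was −0.42 and for pre-treatment 0.05. Endothelial and astrocyte sums separated irisin-MPTP from MPTP mice as given above. Dopaminergic and neuronal sums were lower without overlap in delayed MPTP mice than in their controls. They were 496 to 621 against 704 to 740 CPM, and 3862 to 4042 against 4103 to 4244 CPM. The part of these markers in the Ccn1 values was not tested. The MPTP mice with the highest choroid plexus sum, replicate 2 of pre-treatment and replicate 3 of delayed, had 19.3 and 3.23 CPM of Ccn1.
Of the other ligand genes, Nrros, which tethers latent TGF-β on microglia, was first for irisin-MPTP against control (0.81, SE 0.21, adjusted p = 0.417), Edil3, an RGD protein that binds αVβ3 and αVβ5, for irisin alone (0.16, SE 0.06, adjusted p = 0.506) and Tgfb2 for the interaction (0.51, SE 0.14, adjusted p = 0.696). At most 6 of 21 passed unadjusted in one comparison of 2 groups (2 higher and 4 lower, for irisin-MPTP against control, beside 7.12% of all genes). The list's median lay between −0.09 and 0.14 over these comparisons.

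The 250 bases before the RefSeq start of Ccn1 are shown as those of the only gene of the lists that passed, in the same build and with the same motifs in capitals. The window held 2 GC box matches and 1 TATA box.
Ccn1, chr3:145649986-145650235, minus strand: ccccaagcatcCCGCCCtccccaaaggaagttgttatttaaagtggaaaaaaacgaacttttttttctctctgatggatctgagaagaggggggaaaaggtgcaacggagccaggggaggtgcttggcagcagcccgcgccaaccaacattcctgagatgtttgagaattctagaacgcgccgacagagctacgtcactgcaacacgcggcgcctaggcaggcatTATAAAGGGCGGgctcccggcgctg

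**Figure D4:**
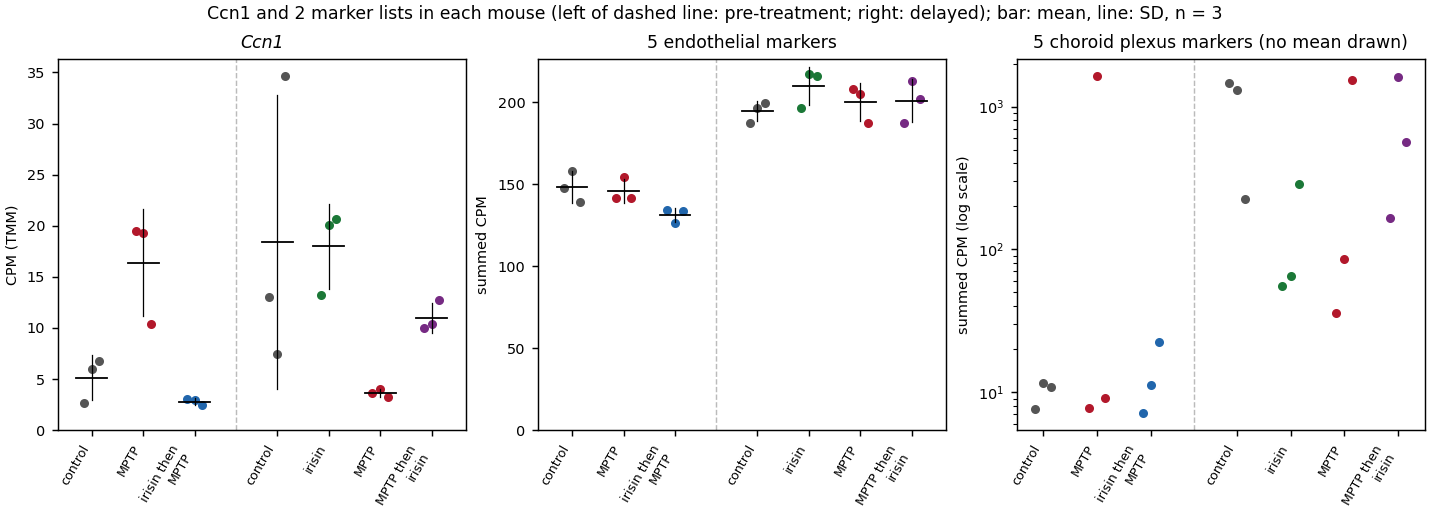
CPM of Ccn1 (left), summed CPM of 5 endothelial markers (middle) and summed CPM of 5 choroid plexus markers on a log axis (right) in each of the 21 mice by group, with dots for mice and, on the left and in the middle, bars for means and lines for SD (n = 3). Ccn1 is 10.4 to 19.5 CPM in the pre-treatment MPTP mice and 3.23 to 3.99 CPM in the delayed MPTP mice.

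Genes whose log2 CPM followed a member most closely were found from Pearson's r over the 9 mice of the pre-treatment and the 12 mice of the delayed experiment, ranked among 21152 genes by the lower of the 2 values. Mice of a group share their treatment and each library its depth, so that r is a description. Fndc5 was most like Rexo2 (r of 0.79 and 0.81), Ccdc85c (0.83 and 0.78) and Cideb (0.78 and 0.77). Itgb5 was most like Rhoq (0.81 and 0.81), Rilp (0.86 and 0.80) and Pgpep1 (0.85 and 0.79). Itgav was most like the predicted genes Gm10167 (0.79 and 0.78) and Gm49167 (0.78 and 0.77) and Hhip (0.77 and 0.70). Among the members, r of Fndc5 with Itgb5 was 0.48 and 0.75, but −0.47 and 0.83 with group means subtracted, and that of Itgav with its β5 partner 0.02 and −0.03. Itgb5 had r of 0.82 and 0.59 with Itgb3 and of 0.74 and 0.51 with Bcar1 (0.85 and 0.66, and 0.63 and 0.55, with group means subtracted).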

How the data were processed

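Midbrain RNA of 21 mice was sequenced on an Illumina sequencer. The authors deposited whole-number counts per gene, not normalized, with FPKM values beside them, in 1 table for each experiment. The methods name featureCounts, and the submitters' processing notes name HISAT, StringTie, edgeR and mm9, with no versions. Gene starts in the tables equal those of GENCODE M21 (GRCm38) for 100% and 99.6% of genes, so coordinates are given as GRCm38. Counts were tested with edgeR 4.0.16 in R 4.3.3 (TMM, filterByExpr with a count minimum of 10 and a total of 15, quasi-likelihood test, all groups of an experiment in 1 fit, Benjamini-Hochberg over 22641, 21922 or, for the fit of both experiments, 23364 genes). SE is the absolute log2 fold change over the root of F, and intervals are 95%. Alternatives were DESeq2 1.42.0, limma 3.58.1 on log2(FPKM + 1) and log2(FPKM + 0.1), other scaling and filters, 2-group fits, a replicate block and leaving out each mouse. An exact test of 3 against 3 cannot go below p = 0.1. On simulated counts, the test recovered 118 of 200 changed genes among 21911 for irisin-MPTP against MPTP and 123 of 200 among 21276 for irisin alone against control. These values were not split by fold size, and recovery at fold changes as small as those of most members was not tested. The text names all members, each list gene with an adjusted p under 0.05, the smallest-p gene of each list in each comparison within an experiment, and the 3 most alike genes. Members and lists were chosen with earlier results of these data known. The labels number the replicates without saying that each is a separate animal, so that p-values measure the spread between these libraries, which within a group differed by more than sampling noise (chi-square per gene 39.7 to 96.1).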

Additional observations from a re-analysis of the deposited data

Results flagged for a closer look

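Ccn1, the secreted integrin ligand, was the one gene of the members and lists whose response differed between the experiments in a direct test, in which 24 (MPTP effect) and 18 (irisin effect) of 23364 genes passed. The MPTP effect, delayed minus pre-treatment, was −4.00 on the log2 scale (95% interval −5.31 to −2.70, edgeR adjusted p = 0.0103), and the irisin effect in MPTP mice, delayed minus pre-treatment, was 4.15 (2.83 to 5.47, adjusted p = 0.0104). The first missed the threshold by limma on log2(FPKM + 1) (adjusted p = 0.0521) and without replicate 3 of the delayed MPTP mice (adjusted p = 0.0524). Both differences use the same 6 MPTP mice, so that they are not independent of each other. The MPTP mice lay at 10.4 to 19.5 CPM in one experiment and at 3.23 to 3.99 CPM in the other. The order of the agents, the experiment and the table cannot be told apart.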

How the results depend on the processing

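No member passed an adjusted p of 0.05 under the other scalings, filters, tools or fits. With 1 mouse left out at a time, the number of members called for MPTP-irisin against MPTP ranged from 0 to 1, the call being Src without replicate 3 of MPTP-irisin (−0.83, adjusted p = 0.0147), and the cause was not tested. Of 1593 alternative values of the members, 71 changed sign. Of the 9 genes most alike Fndc5, Itgav or Itgb5 by Pearson's r, 2 stayed among the 3 most alike by Spearman's rho and 1 with group means subtracted, and the cause was not tested. The Ccn1 difference in the MPTP effect missed the threshold by limma on log2(FPKM + 1) (−2.91, adjusted p = 0.0521) and without replicate 3 of delayed MPTP (−3.93, adjusted p = 0.0524). Within an experiment, Ccn1 passed by DESeq2 in 3 comparisons (pre-treatment MPTP against control, irisin-MPTP against MPTP and delayed MPTP against control) and with only the 2 groups in the fit in 2 (irisin-MPTP against MPTP, adjusted p = 0.0478, and MPTP-irisin against MPTP, adjusted p = 0.0429). No label says that replicate numbers pair the mice, and r of deviations did not show it but cannot exclude it. This r was −0.10 to 0.18 for mice of the same number and −0.15 to 0.18 for mice of different numbers. With the number as a replicate block, 0 members were called and Ccn1 kept both calls (−4.01, adjusted p = 0.0205, and 4.15, adjusted p = 0.0168). Over all genes and the 9 comparisons, the number called was 1 to 29, with the block 1 to 18 and by DESeq2 32 to 191. It was 2 to 26 with all genes that had any count, 1 to 25 by limma on log2(FPKM + 0.1) and 1 to 16 on log2(FPKM + 1), and 9 to 21 in the 6 comparisons of 2 groups with only those groups in the fit. Depth limits Itgb3 most, at 139 to 331 reads a library.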

Other observations

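Cx3cr1, a microglial receptor gene named after its values were seen, stood at 2 levels in the delayed experiment as Src and Itgav did. It was 35.0 CPM in replicate 3 of irisin alone, 33.9 CPM in replicate 3 of MPTP and 32.1 CPM in replicate 1 of MPTP-irisin, against 3.32 to 6.19 CPM in the other 9 mice. Among genes with a mean of at least 10 CPM, some had a gap of at least 1 on the log2 scale between neighbouring mice. They were 495 of 10619 (4.66%) in the pre-treatment and 419 of 10685 (3.92%) in the delayed experiment. The gaps of Src, 0.88 and 0.67, were narrower than this.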
